A study of Mus musculus with 58 samples.

Results

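10 genes known from visceral fat and from mesothelium were followed through the sex hormone experiment of the series, in which adipose stem cells (ASC) labelled as inguinal white adipose tissue (iWAT) were measured by bulk RNA-seq. The 10 members are Tcf21, Wt1, Gata4, Gata6, Bnc1, Upk3b, Upk1b, Msln, Lrrn4 and Gpm6a, out of 56953 genes in the table. They were chosen from the reads of earlier results in these same libraries, in which several of them were found in some libraries and not in others, so their levels are given here as a description and no test on them is independent of that choice. The mice were of the C57BL6/J strain, fasted for 4 h before they were killed at 10 weeks of age, and all groups share this background. Castration or ovariectomy had been carried out at an age of 4 weeks, and control mice of each sex were compared with the operated ones. Cells were sorted by FACS as negative for CD45 and CD31 and positive for CD34, with cells lacking DPP4 collected as ASC1 and cells carrying it as ASC2. The 58 libraries were made with Smart-seq3, a full-length cDNA protocol, with 8 in each combination of treatment and population, except for ASC1 of control males (7) and of ovariectomized females (3). Each library is named here by its group and the letter in its label.

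White fat lies in subcutaneous depots such as iWAT and in visceral depots inside the body cavity. Stromal cells keep the transcription factors of the region in which they arose, and Tcf21, Wt1, Gata4 and Gata6 are commonly found in visceral and other splanchnic mesenchyme, whereas Tbx15 is a transcription factor typical of subcutaneous fat. The visceral depots and the organs of the body cavity are covered by mesothelium, a flat epithelium that carries surface proteins such as mesothelin and the uroplakins and also expresses Wt1. Subcutaneous fat has no mesothelial covering.

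Total counts per library ranged from 106562 to 1421518 with a median of 682400, and between 9122 and 15035 genes had a read. Dpp4, which encodes the antigen of the sort, lay between 0.868 and 47.1 CPM (counts scaled to the same library total) in ASC1 libraries and between 49.0 and 487 CPM in ASC2 libraries, without overlap. All 7 fibroblast genes of the marker list were found in every group. Their summed level was 76400 to 92600 CPM in the 3 ovariectomized ASC1 libraries and 6320 to 29300 CPM in all the others, so these 3 libraries stood apart. The labels did not always match the sex transcripts. A library was taken to match a male label at 20 CPM or more of the Y-linked Ddx3y, Eif2s3y, Kdm5d and Uty, 4 genes summed, with Xist below 15 CPM, and a female label at 20 CPM or more of Xist with the Y genes below 5 CPM. By these limits 30 libraries matched and 28 did not. All libraries of ovariectomized females and of castrated male ASC2 matched, none of 8 castrated male ASC1 did, and neither did 6 of 8 control female ASC1, 6 of 8 control female ASC2, 4 of 7 control male ASC1 and 4 of 8 control male ASC2. Sult1e1 and C7, which the paper reports as enriched in males and reduced after castration, were also read in each library. Sult1e1, an estrogen sulfotransferase, was at 22.6 to 153 CPM in all 15 control male libraries, including the 8 that did not match, and at 4.81 CPM or less in all the others, where 2 libraries, both of control female ASC1, had a read. C7, a complement component, was at 122 CPM or more in every control male library, at a median of 105 CPM and a highest value of 284 CPM in the 3 ovariectomized ASC1 libraries and at 20.7 CPM or less elsewhere. Sult1e1 thus followed the labels of control males, and C7 did so except that ovariectomized ASC1 overlapped with them. Both genes were low in castrated males and control females alike, so they do not tell these labels apart. The paper describes low counts of Ddx3y and Eif2s3y in female control samples and reads them as weak contamination with male mRNA. From the low Sult1e1 and C7 counts it proposes that these samples are clean. An exchange of labels and a mixing of RNA were not tested here. Group names below are the names on the labels. For the members, each comparison that libraries remained for is also given with those that matched. Comparisons of all other genes below use every library, including those that went against the label. All 58 libraries are labelled iWAT, but the genes that mark a depot did not run the same way in all of them (Tcf21 and its companions were found in 22 libraries and Tbx15 was mostly higher in the others), so whether every library holds cells of that depot alone was not tested, and each group difference below carries that limit.

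The promoters of 3 members that were found in the same libraries are shown, because those genes carry the main pattern below. RefSeq promoter sequence on GRCm38.p6 was supplied for 5 of the 10 members, and the 250 bases before the annotated start of Tcf21 (chr10:22820144-22820393, minus strand), Upk3b (chr5:136038246-136038495, plus strand) and Lrrn4 (chr2:132880863-132881112, minus strand) are printed 5′ to 3′. Capitals mark matches to CANNTG, the core letters bound by basic helix-loop-helix factors such as Tcf21, and to GATAA on either strand, letters bound by GATA factors.
Tcf21: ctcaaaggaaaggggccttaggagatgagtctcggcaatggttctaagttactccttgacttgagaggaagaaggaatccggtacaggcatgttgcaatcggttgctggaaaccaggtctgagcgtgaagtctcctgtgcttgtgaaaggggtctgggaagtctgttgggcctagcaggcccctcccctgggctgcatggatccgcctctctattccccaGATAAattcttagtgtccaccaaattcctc
Upk3b: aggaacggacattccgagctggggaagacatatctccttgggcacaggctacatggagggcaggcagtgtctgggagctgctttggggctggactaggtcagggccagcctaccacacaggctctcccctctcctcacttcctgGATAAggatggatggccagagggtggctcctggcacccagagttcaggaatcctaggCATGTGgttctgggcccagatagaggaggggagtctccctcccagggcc
Lrrn4: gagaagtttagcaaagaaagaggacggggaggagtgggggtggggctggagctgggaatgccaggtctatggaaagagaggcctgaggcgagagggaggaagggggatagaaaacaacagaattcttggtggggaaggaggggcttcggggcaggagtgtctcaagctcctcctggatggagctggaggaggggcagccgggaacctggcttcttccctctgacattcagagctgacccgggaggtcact
Tcf21 held 1 GATAA and no CANNTG, Upk3b held 1 of each, and Lrrn4 held neither. Of all 32851 promoter windows of this length, 66.2% held CANNTG and 22.6% held GATAA. The 3 promoters shared no motif of the pair searched, and a match or its absence in these windows is a description of letters only.

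Tcf21, a basic helix-loop-helix factor of visceral mesenchyme, was either absent or present at 7 or more reads in nearly every library. No read was found in 34 of the 58 libraries, 1 or 2 reads were found in 2, and 22 libraries held at least 5. In control male ASC1 it had 7, 17 and 17 reads in libraries B, C and D and none in E to H. In castrated male ASC1 it had 70, 45, 42, 32, 17 and 7 reads in libraries K to P and none in I and J, and in castrated male ASC2 it had 8 and 17 reads in I and J and none in K to P. The libraries with and without the transcript were thus opposite by letter in the castrated ASC1 and ASC2 groups. In control female ASC1 it had 2, 13, 25, 14, 21 and 21 reads in libraries A, B, C, D, G and H and none in E and F. In control female ASC2 it had 31 and 22 reads in C and D, 1 in E and none in the other 5, and in ovariectomized ASC2 it had 29, 53, 53 and 20 reads in I to L and none in M to P. No read was found in the 8 control male ASC2 libraries or in the 3 ovariectomized ASC1 libraries. For these 2 groups a count of 0 allows up to 0.451 and 1.92 CPM (3 counts over the group, counting error only), so the second bound is weaker because the 3 libraries held only 1559467 counts.

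**Figure D1:**
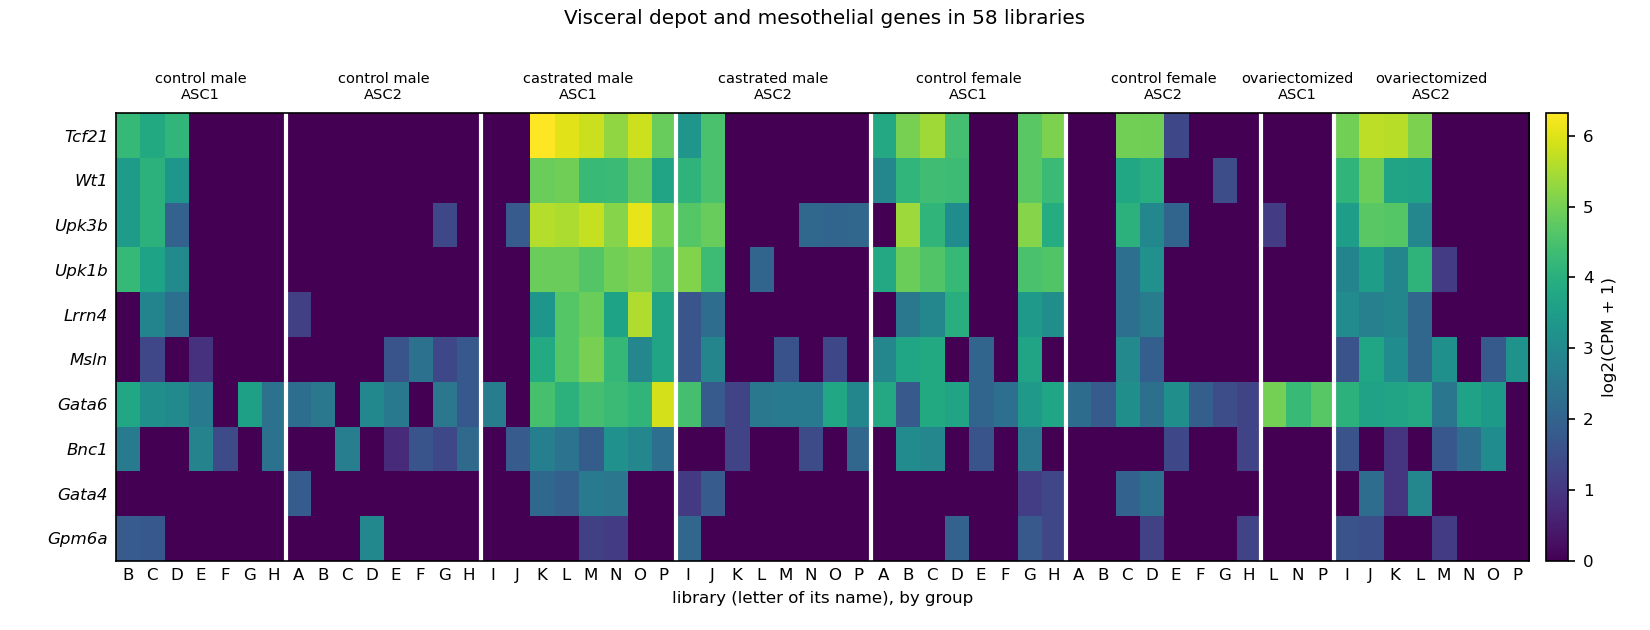
Level of the 10 genes, as log2(CPM + 1), in each of the 58 libraries, with genes in rows and libraries in columns by group and letter. Tcf21, Wt1, Upk3b, Upk1b and Lrrn4 are high in the same libraries and dark in the same others, while Gata6 is found in 53 of 58 libraries.

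By group, mean Tcf21 was highest in castrated male ASC1, at 39.9 ± 29.1 CPM (SD, n = 8, as for all groups except control male ASC1 with n = 7 and ovariectomized ASC1 with n = 3). It was 20.5 ± 15.2 CPM in control female ASC1, 20.3 ± 22.8 CPM in ovariectomized ASC2, 7.72 ± 13.8 CPM in control female ASC2, 6.83 ± 8.63 CPM in control male ASC1 and 3.79 ± 7.80 CPM in castrated male ASC2. Each pair of neighbours in this order differed by less than the larger of their SDs. The median was 0 in 5 of the 8 groups, so a group mean depends on how many of its libraries held the transcript. In bulk RNA, fewer cells of a type and less RNA per cell cannot be told apart.

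Wt1, a zinc finger transcription factor of mesothelium and of visceral fat progenitors, followed Tcf21 library by library. It had reads in 24 libraries and none in 34, and all 22 libraries with at least 3 reads of Wt1 were the 22 with at least 3 reads of Tcf21. Its reads were 25, 21, 14, 16, 8 and 3 in libraries K to P of castrated male ASC1 and 15 and 17 in I and J of castrated male ASC2. They were 4, 20 and 9 in B to D of control male ASC1, 7, 12, 13, 21 and 12 in B, C, D, G and H of control female ASC1, 13 and 11 in C and D of control female ASC2, and 16, 30, 13 and 7 in I to L of ovariectomized ASC2. Outside those 22 libraries Wt1 had 1 read in library A of control female ASC1 and 1 in library G of control female ASC2. Its mean was 16.7 ± 11.9 CPM in castrated male ASC1, 13.3 ± 9.71 CPM in control female ASC1, 8.60 ± 10.6 CPM in ovariectomized ASC2 and at most 4.95 ± 6.50 CPM elsewhere.

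Upk3b and Upk1b, uroplakins that in the adult are found in mesothelium and urothelium, had the same distribution. All 22 libraries with at least 3 reads of Upk3b, and all 22 with at least 3 reads of Upk1b, were again the 22 libraries of Tcf21. Upk3b reached 43 reads in library K of castrated male ASC1, where its 6 libraries K to P held 43, 32, 41, 30, 20 and 8 reads against 0 in I and 2 in J. Upk1b had 25, 20, 18, 26, 10 and 6 reads in the same 6 libraries and 0 in I and J. In castrated male ASC2, Upk3b had 22 and 22 reads and Upk1b 31 and 15 reads in I and J, and in K to P neither gene exceeded 2 reads. In ovariectomized ASC1 Upk3b had a single read, in library L, and Upk1b none. In control male ASC2 Upk3b also had a single read, in library G, and Upk1b none.

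Lrrn4, a leucine-rich repeat membrane protein used as a mesothelial marker, had at least 3 reads in 18 libraries, all of which were among the same 22. Its highest counts were 22, 17 and 14 reads in libraries M, L and O of castrated male ASC1, followed by 10 reads in library N of that group and in library D of control female ASC1. It had no read in I and J of castrated male ASC1. Library B of control male ASC1 was the only one of the 22 without a read of Lrrn4. Msln, the surface antigen mesothelin, followed the pattern less closely in which libraries held it. It had at least 1 read in 30 libraries and at least 3 in 15, of which 12 (80.0%) were among the 22 libraries of Tcf21, and those 12 were 54.5% of the 22. In castrated male ASC1 it had 12, 17, 24, 15, 2 and 3 reads in K to P and none in I and J. It also had 7 reads in library M of ovariectomized ASC2, where Tcf21, Wt1 and Upk3b had none, and 3 reads in library E of control female ASC1, where all 5 of the genes above had none. At 3 reads as the minimum, the number of libraries that held Msln fell from 30 to 15.

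**Figure D2:**
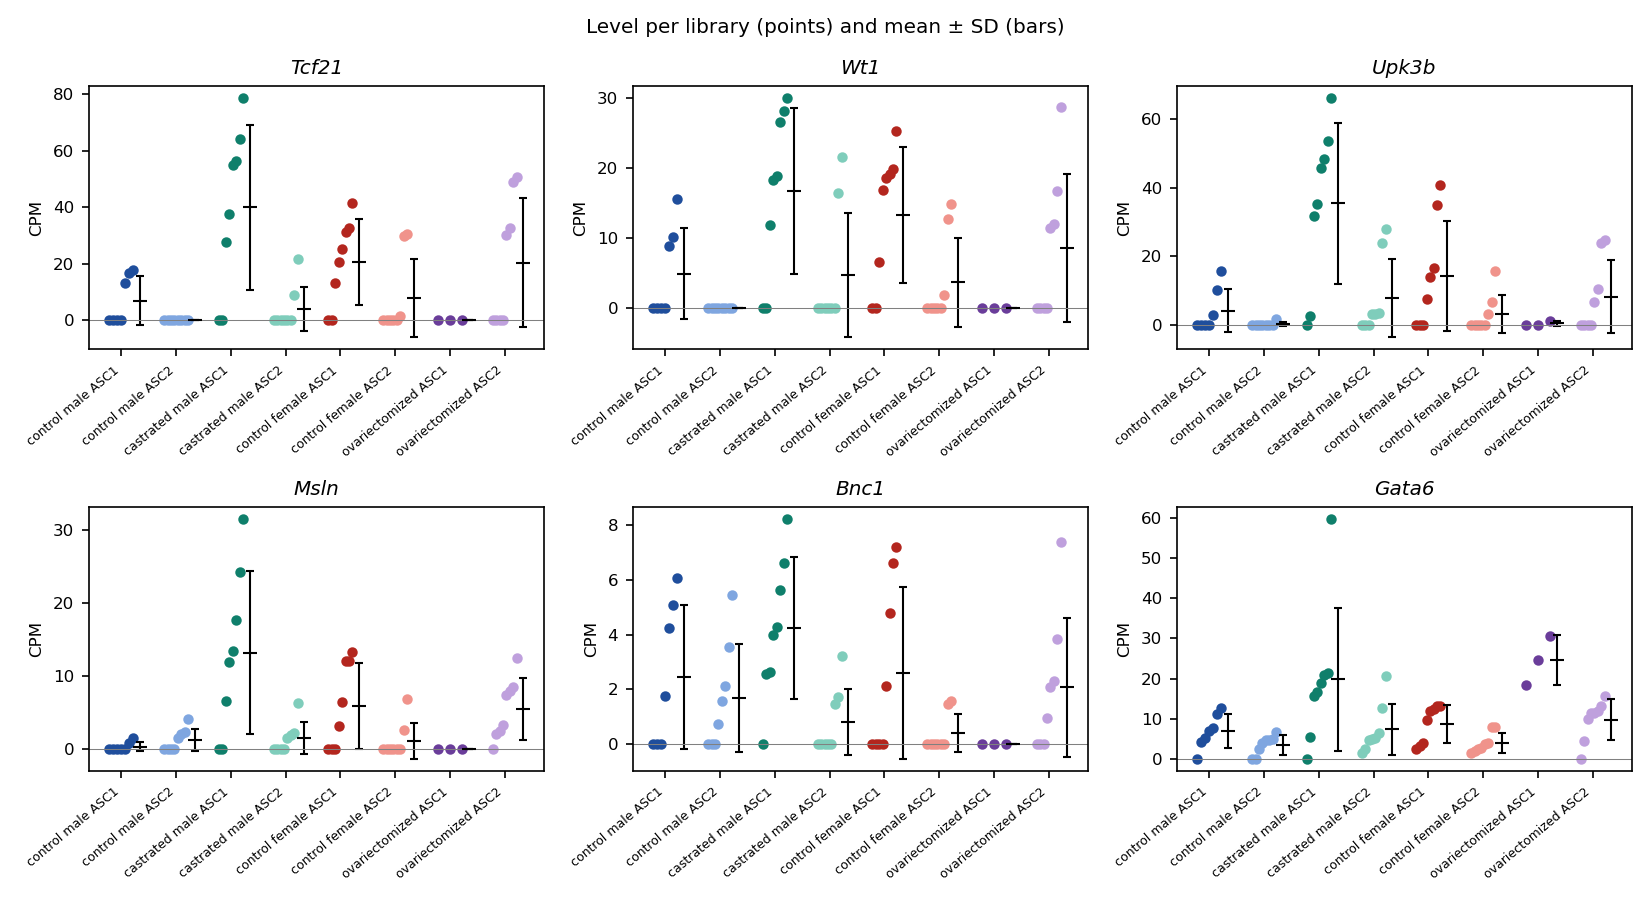
CPM of 6 of the genes in each library (points, sorted within a group) with the mean ± SD of the group (bars), on a separate linear axis for each gene. Tcf21, Wt1 and Upk3b split most groups into libraries at 0 and libraries well above it, whereas Gata6 is spread continuously and is at 18.3 to 30.7 CPM in the 3 ovariectomized ASC1 libraries.

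The 2 GATA factors, zinc finger proteins of splanchnic mesoderm, differed from each other. Gata6 had a read in 53 of the 58 libraries. Its mean was 24.6 ± 6.18 CPM in ovariectomized ASC1, from 27, 4 and 4 reads, and 19.8 ± 17.8 CPM in castrated male ASC1, and it was between 3.41 ± 2.42 CPM (control male ASC2) and 9.76 ± 5.06 CPM (ovariectomized ASC2) in the other 6 groups. Ovariectomized ASC1, the group in which 8 of the other members had no read and Upk3b had 1, was therefore the group with the highest mean of Gata6, although its range of 18.3 to 30.7 CPM lay within that of castrated male ASC1, 0 to 59.6 CPM. Gata4 had at most 4 reads in a library and 35 in all, too few for the count filter. The 7 libraries with at least 3 reads of Gata4 were all among the 22, namely K, M and N of castrated male ASC1, C and D of control female ASC2, and J and L of ovariectomized ASC2. On the opposite strand Gata6 overlaps the antisense gene 1010001N08Rik, which had 44 reads in all against 345 of Gata6, and Tcf21 overlaps Gm10824, with 5 reads against 584. Strand was not stated for the counting, so reads of such pairs may be shared.

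Bnc1, a zinc finger factor of basal epithelium and mesothelium, had at most 7 reads in a library and at least 1 read in 30 libraries. Of the 11 libraries with at least 3 reads, 6 (54.5%) were among the 22. Library E of control male ASC1 held the most, 7 reads at 6.07 CPM, with no read of Tcf21 or Wt1, and library N of castrated male ASC1 also held 7 reads, at 8.22 CPM, with 32 of Tcf21. Gpm6a, a membrane glycoprotein of neurons and mesothelium, had at most 3 reads in a library and 24 in all, and it did not pass the count filter either. Neither gene was detected well enough to place it with or against the others at this depth.

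The genes found together were Tcf21, Wt1, Upk3b, Upk1b and Lrrn4, a group named after the values had been seen and therefore not tested. All 5 had a read in 21 libraries, 4 of 5 in 1, 1 to 3 in 12 and none in 24. The 22 libraries with 4 or 5 of the genes held between 22 and 171 reads of the 5 together, and the 12 with 1 to 3 of them held between 1 and 5. No library fell between these ranges of reads, which depend on depth. Library A of control female ASC1, with 5 reads of these genes, held only 139822 counts. Its Tcf21 was at 13.1 CPM, against 8.73 CPM in library I of castrated male ASC2, which is among the 22. By level, library A is therefore not set apart from the 22. By group the 22 were 3 of 7 control male ASC1, 0 of 8 control male ASC2, 6 of 8 castrated male ASC1, 2 of 8 castrated male ASC2, 5 of 8 control female ASC1, 2 of 8 control female ASC2, 0 of 3 ovariectomized ASC1 and 4 of 8 ovariectomized ASC2. Every group with any such library also held libraries without them. Letters C and D of control female held the genes in both populations. By the limits above, their ASC1 libraries had the transcripts of a male and their ASC2 libraries those of a female. In castrated males no letter held the genes in both populations, with I and J in ASC2 and K to P in ASC1. In control males and ovariectomized females each such library was of 1 population only.

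Over all 58 libraries the genes whose Spearman correlation with Tcf21 was highest, among genes with a mean of at least 1 CPM, were Wt1 (rho = 0.94), Upk1b (0.91), Lrrn4 (0.91), Gm47416 (0.90) and Jph2 (0.90), a junctophilin of muscle. For Wt1 they were Tcf21 (0.94), Upk1b (0.92), Lrrn4 (0.91), Gm47416 (0.88) and Upk3b (0.87). For Lrrn4, the list also held Kng1 (0.89) and Myrf (0.87), and for Upk1b it held Plxnb2 (0.85). Msln was most like Tagln (0.71), Sulf1 (0.70) and Thbs1 (0.70), genes of contractile and matrix-forming stroma, then Myl9 (0.70) and Cnn2 (0.70), and no other member was among its first 5. Gata6 was most like Igfbp7 (0.75) and Extl3 (0.74), and Bnc1 most like Mnt (0.58). These values are given without a p, since the libraries fall into separate sets at and above 0 and the libraries of a group share their treatment. Within the 22 libraries with at least 3 reads of Tcf21, the correlation of log2(CPM + 1) was lower for its 4 companions. It was r = 0.51 and rho = 0.53 for Tcf21 with Wt1, and r = 0.51 and rho = 0.58 with Upk3b. With Lrrn4 it was r = 0.58 and rho = 0.52, and with Upk1b r = 0.13 and rho = 0.25. Msln had the highest value with Tcf21 among the members compared there, at r = 0.65 and rho = 0.73. In these libraries there were 0.245 to 1.88 reads of Wt1 and 0.129 to 3.88 reads of Upk1b for each read of Tcf21. Library I of castrated male ASC2 had the highest ratio of Upk1b, with 31 reads against 8 of Tcf21.

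**Figure D3:**
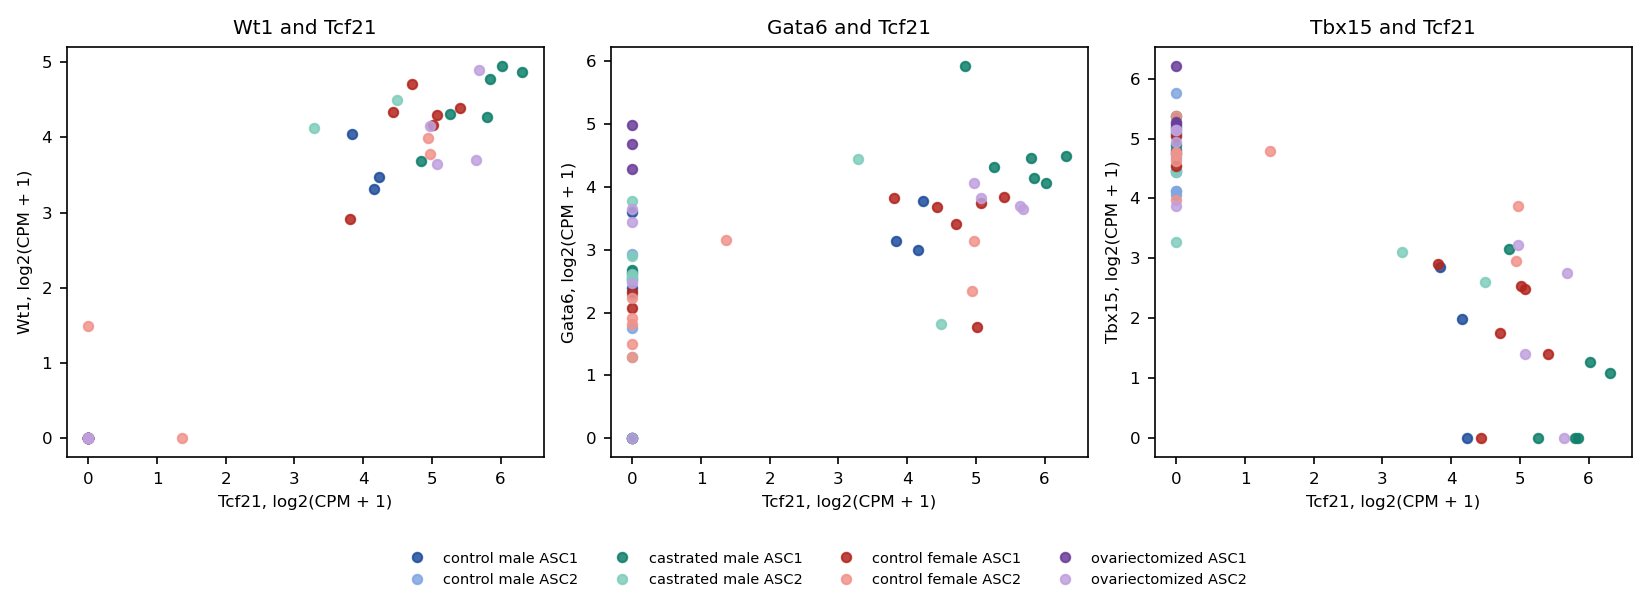
Level of Wt1, Gata6 and Tbx15 against that of Tcf21, each as log2(CPM + 1), with 1 point for each of the 58 libraries, coloured by group. Wt1 and Tcf21 are at or near 0 together or high together, Gata6 is found at both ends, and Tbx15 is higher where Tcf21 is at 0.

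Tbx15, the subcutaneous factor, was opposite to Tcf21 across libraries, in a relation noticed in the data and not tested. The 34 libraries without a Tcf21 read had Tbx15 between 8.66 CPM (library K of castrated male ASC2) and 73.3 CPM (library N of ovariectomized ASC1). Of the 24 with a Tcf21 read, only library E of control female ASC2 (26.8 CPM, with 1 read of Tcf21) and library C of the same group (13.7 CPM, with 31 reads of Tcf21) were above 8.66 CPM, and 6 had no read of Tbx15. In castrated male ASC1, Tbx15 had 16 and 32 reads in I and J and 2 or fewer in K to P. In control male ASC1 it had 0, 8 and 3 reads in B, C and D and 41, 15, 15 and 19 in E to H. Between groups Tbx15 differed in 1 of the 9 comparisons, being higher in ovariectomized than control female ASC1 (49.2 ± 20.8 against 9.29 ± 11.5 CPM, adjusted p = 0.026 by edgeR).

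The sex transcripts were set beside the 5 genes. Of the 22 libraries with 4 or 5 of the genes, 11 matched the sex on the label and 11 did not, and 10 had the transcripts of a male and 12 those of a female by the limits above. In control female ASC1, the 5 libraries with the genes were all among the 6 that did not match, and libraries E and F, which matched, had none. In control male ASC1 and in control female ASC2 it was the other way round, with the genes in 3 of 3 and 2 of 2 matching libraries and in none of the 4 and 6 that did not match. Of 13 libraries that held both at least 3 Y reads and at least 20 Xist reads, 1 was among the 22, library N of castrated male ASC1 with 4 Y reads. The part of a label or mixing difference in the levels of the 5 genes was not tested.

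**Figure D4:**
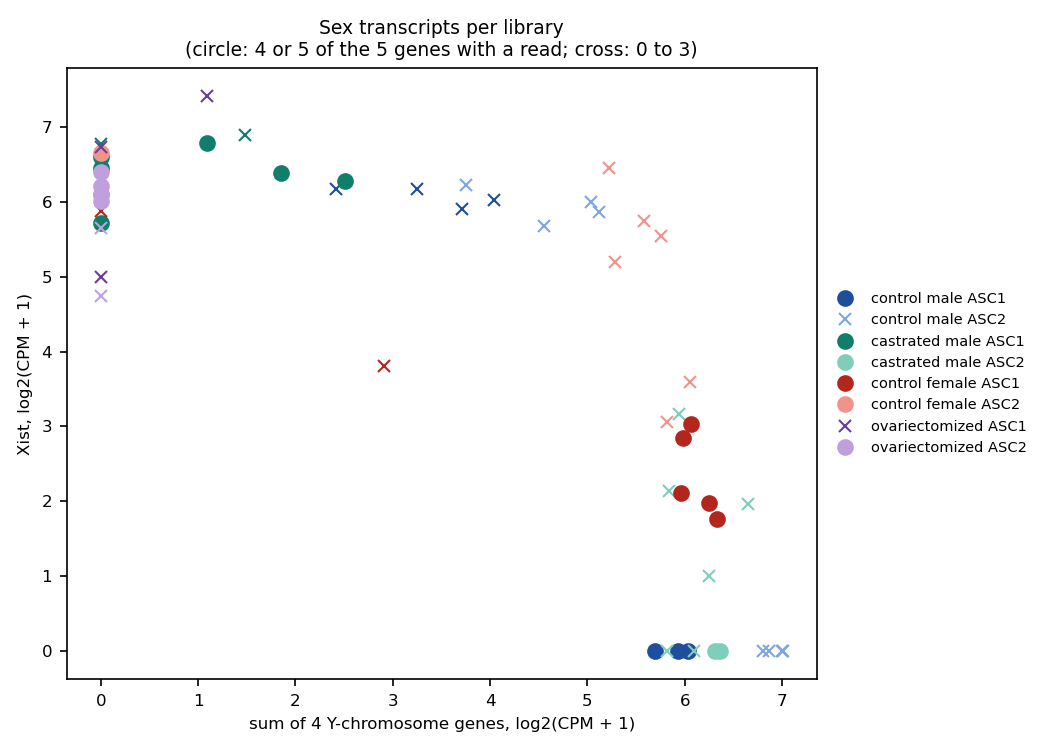
Xist against the sum of 4 Y-chromosome genes, both as log2(CPM + 1), with 1 symbol per library coloured by its labelled group. Circles are the 22 libraries with a read of 4 or 5 of Tcf21, Wt1, Upk3b, Upk1b and Lrrn4, and crosses are the others. Circles lie at both ends, and crosses fill most of the region with both transcripts.

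The effect of castration was asked first. The test was the quasi-likelihood test in edgeR, run over 12464 genes and all 58 libraries with a Benjamini-Hochberg adjusted p below 0.05 as the threshold, and 8 of the 10 members passed the count filter. In ASC1, Upk3b was higher in libraries labelled castrated male than in control male (35.4 ± 23.6 against 4.10 ± 6.28 CPM, log2 fold change 2.93, SE 0.84, adjusted p = 0.043), as were Msln (13.2 ± 11.1 against 0.346 ± 0.624 CPM, 4.32, SE 0.94, adjusted p = 0.0036) and Lrrn4 (16.5 ± 15.8 against 1.46 ± 2.57 CPM, 2.97, SE 0.83, adjusted p = 0.035). These 3 of 8 stood against 2.36% of all genes called in either direction. The groups overlapped for each, since libraries I and J held no more than 2 reads of any. Tcf21 (2.49, SE 0.93, adjusted p = 0.17), Wt1 (1.62, SE 0.91, adjusted p = 0.48), Upk1b (1.99, SE 0.88, adjusted p = 0.28), Gata6 (1.45, SE 0.51, adjusted p = 0.13) and Bnc1 (0.78, SE 0.75, adjusted p = 0.74) did not pass. The median log2 fold change of the 8 was 2.24, against -0.01 over all genes. By DESeq2 only Msln passed, and no castrated male ASC1 library is left when those that go against the label are removed. All 8 castrated libraries had Xist at 51.7 to 118 CPM with the Y genes at 4.70 CPM or less. Of the controls, 3 had Xist at 0, and 4 had Xist at 58.8 to 71.1 CPM with the Y genes at 4.34 to 15.5 CPM. Xist of those 4 controls lay within the castrated range, and none of the 4 was among the 22 libraries, against 6 of 8 castrated ones. No castrated ASC1 library had the transcripts of a male, so castration and sex transcripts cannot be fully told apart in ASC1. Their separate parts were not tested.

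In ASC2, Wt1, Upk3b and Upk1b were higher in castrated than control male libraries, 3 of 8 against 6.95% of all genes. Control male ASC2 had no read of Wt1 or Upk1b in 6658035 counts, so that Wt1, with 32 reads in castrated males, was at least 13.0-fold higher (adjusted p = 0.048) and Upk1b, with 48 reads, at least 19.4-fold higher (adjusted p = 0.015), with 3 counts over the group as the floor. Upk3b had 7.71 ± 11.4 against 0.196 ± 0.554 CPM (4.65, SE 1.33, adjusted p = 0.023). Tcf21 was at least 10.1-fold higher by the same floor but did not pass (adjusted p = 0.14). All reads of Tcf21 and Wt1, and all but 5 of Upk3b and 2 of Upk1b, came from libraries I and J, and the other 6 castrated libraries overlapped with the controls. The median of the 8 was 3.14, or 2.49 with the 3 genes without a control read at their bound, against 0.005 over all genes. DESeq2 called Upk3b and Upk1b but not Wt1. With only the 2 groups compared, 1 member passed the count filter and none was called, so the test of the others rests on their reads in other groups. With the libraries that matched the label alone none of the 3 passed (adjusted p = 0.056 to 0.12). The difference between the castration effects in ASC2 and ASC1 passed for none of the 8 by edgeR, against 2.41% of all genes, with Msln and Upk1b below an unadjusted p of 0.05.

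Male and female controls were compared next. In ASC1 no member passed by edgeR, against 0.289% of all genes, and none was below an adjusted p of 0.05 by DESeq2. Msln had the largest difference, with 0.346 ± 0.624 CPM in males and 5.88 ± 5.87 CPM in females (-3.12, SE 0.99, adjusted p = 0.24 and unadjusted p = 0.0025, the 1 member with an unadjusted p below 0.05). All 8 fitted values were lower in males, with a median of -1.55. In ASC2, Tcf21 was lower in males (adjusted p = 0.044), with no read in 8 male libraries and 54 in the female ones, at least 20.5-fold lower by the floor. It was 1 of 8, against 6.49% of all genes. The female reads came from libraries C, D and E only. Wt1 was at least 9.51-fold lower (adjusted p = 0.080) and Upk1b at least 3.81-fold lower (adjusted p = 0.24), Upk3b had -3.53 (SE 1.45, adjusted p = 0.14), and Bnc1 had 1.80 (SE 0.95, adjusted p = 0.28). DESeq2 called no member. The matching libraries alone called Tcf21, but the only females left there were libraries C and D, with 31 and 22 reads of it. That call follows from which libraries were kept and is no independent check. In ASC1 the sign of 6 members turned with the matching libraries alone, where E and F, the females left, held none of the 5 genes. The sex difference did not pass a test of ASC2 against ASC1 for any of the 8, against 0.128% of all genes, with Msln alone below an unadjusted p of 0.05.

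Ovariectomized and control females were compared in the same way. In ASC1 no member passed by edgeR, although 34.8% of all genes did, with 3 libraries that stood apart from all the others. By unadjusted p, 7 of 8 were below 0.05. DESeq2 called 1 member, Gata6. Tcf21 was at least 10.8-fold lower (adjusted p = 0.082), Upk1b at least 8.19-fold lower (adjusted p = 0.053) and Wt1 at least 7.40-fold lower (adjusted p = 0.080) by the floor of 3 counts over the group. Such bounds cover counting error only and not the spread between libraries. Control libraries E and F held no read of Tcf21, Upk1b or Wt1 either, so the groups overlapped. Msln and Lrrn4 were at least 3.03-fold and 3.25-fold lower (adjusted p = 0.066 and 0.074). Gata6 had the opposite sign, with 24.6 ± 6.18 against 8.72 ± 4.72 CPM (1.56, SE 0.65, adjusted p = 0.052). The median of all genes was shifted to -0.341 here, and that of the 8 was -5.05, or -2.29 with 6 genes at their bound. With the matching libraries alone, where the controls were E and F, Gata6 passed (2.79, adjusted p = 0.024) and the sign of Upk3b turned. Leaving out any of the 3 libraries gave no call of a member, while the count over all genes fell to 2337 without library L. In ASC2 no member passed by edgeR or DESeq2, against 2.09%, with 2 of 8 below an unadjusted p of 0.05 (Msln and Gata6), and all 8 fitted values were above 0 with a median of 1.45. With the matching libraries alone, 2 controls were left, none passed, and the sign turned for Tcf21 (-0.32), Wt1 (-0.38), Upk3b (-0.15) and Lrrn4 (-0.32). Tcf21 was at 20.3 ± 22.8 against 7.72 ± 13.8 CPM (1.47, SE 0.87, adjusted p = 0.50), and the libraries overlapped, with 4 of 8 and 5 of 8 without a read. The difference between the ovariectomy effects in ASC2 and ASC1 passed for 7 of the 8 members, Gata6 being the exception, against 34.8% of all genes, and it rests on the same 3 ASC1 libraries.

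**Figure D5:**
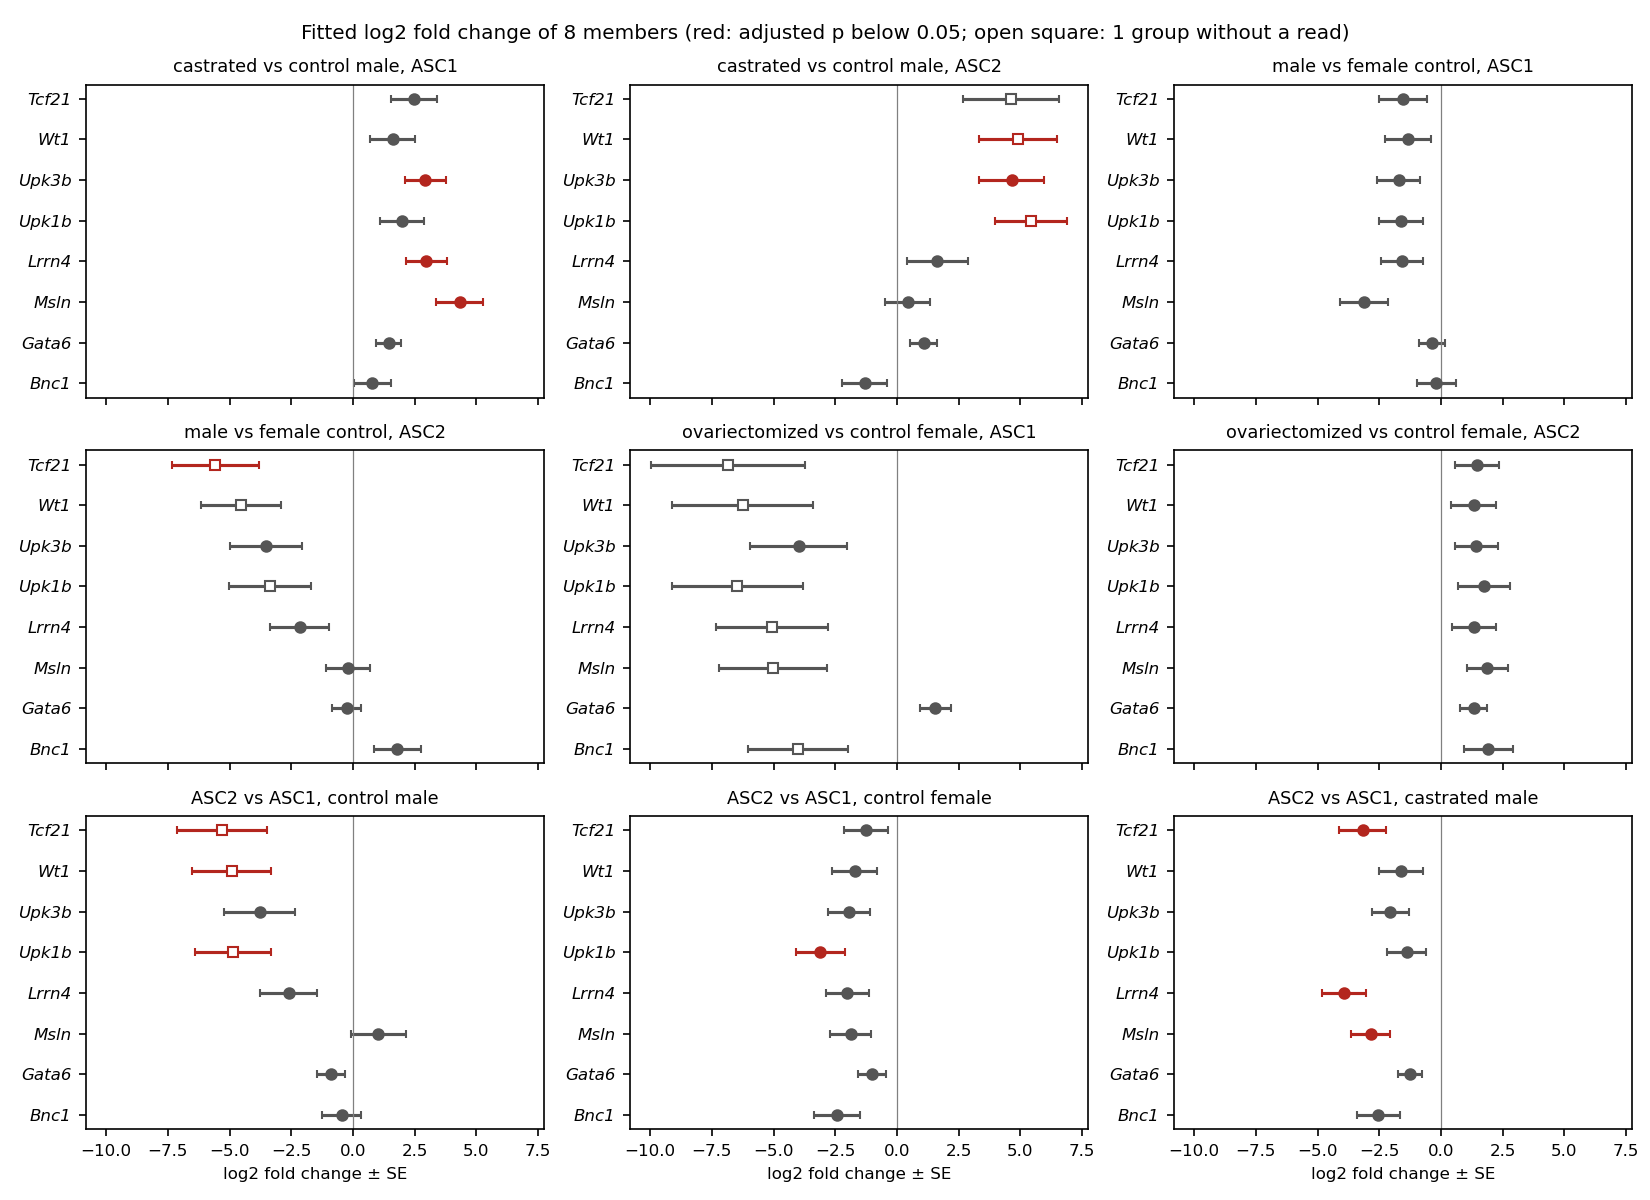
Fitted log2 fold change ± SE of the 8 tested genes in the 9 comparisons, with red marking an adjusted p below 0.05 and open squares marking a group without a read, where the fitted value depends on the prior count and is no bound. Red marks number 3, 3, 0, 1, 0, 0, 3, 1 and 3 from the upper left, row by row.

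Finally, ASC2 was compared with ASC1 within a treatment. In control males Tcf21, Wt1 and Upk1b were lower in ASC2 (adjusted p = 0.048, 0.034 and 0.029), 3 of 8 against 12.2% of all genes, and by the floor they were at least 16.4-fold, 13.2-fold and 11.6-fold lower. All reads of the 3 in ASC1 came from libraries B, C and D. The same 3 genes passed with the matching libraries alone, of which 3 are ASC1 and 4 are ASC2. Those 3 ASC1 libraries are B, C and D, which held all the reads, so this repeat is no independent check. DESeq2 called 1 of the 3 genes, Upk1b. In control females Upk1b was lower in ASC2 (1.51 ± 3.01 against 16.0 ± 10.9 CPM, -3.10, SE 0.98, adjusted p = 0.046), 1 of 8 against 6.11%, and DESeq2 called none. With matching libraries alone, 2 in each population, the sign of Upk1b and of 6 other members turned and none passed. In castrated males Tcf21 (3.79 ± 7.80 against 39.9 ± 29.1 CPM, -3.17, SE 0.95, adjusted p = 0.025), Msln (1.51 ± 2.18 against 13.2 ± 11.1 CPM, -2.85, SE 0.78, adjusted p = 0.012) and Lrrn4 (0.748 ± 1.45 against 16.5 ± 15.8 CPM, -3.93, SE 0.89, adjusted p = 0.0018) were lower in ASC2, 3 of 8 against 9.07% of all genes. DESeq2 called Msln and Lrrn4 but not Tcf21. All 4 leukocyte genes tested were higher in ASC2 in the same comparison. These are the groups whose libraries went against each other by sex transcripts, all 8 ASC1 libraries having Xist at 51.7 to 118 CPM and all 8 ASC2 libraries the Y genes at 55.6 to 99.6 CPM, so that population and sex transcripts cannot be told apart there. No castrated male ASC1 library is left when those that go against the label are removed, so the comparison could not be repeated without them. The comparisons share groups with one another and are not independent.

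Other genes of the same tissues were counted for comparison. Of 10 further mesothelial genes (keratins 7, 8, 18 and 19, Muc16, Calb2, Pkhd1l1, Nkain4, Cldn15 and Aldh1a2) 7 passed the filter. None of the 7 passed in castrated against control male ASC1 or ASC2, or between control sexes in ASC1. In ASC2 against ASC1 of control females 6 were lower and 1 higher, against 6.11% of all genes, among them Krt7 (-4.28, SE 0.80, adjusted p = 1.9e-04) and Krt8 (-4.10, SE 0.86, adjusted p = 9.3e-04), whereas Krt19 was higher (2.20, SE 0.46, adjusted p = 8.8e-04). In ovariectomized against control female ASC2, Krt7 (4.65, SE 0.81, adjusted p = 3.4e-04) and Krt8 (4.84, SE 0.88, adjusted p = 5.5e-04) were higher, as was Krt18 (3.77, SE 0.77, adjusted p = 0.0021), whereas Krt19 was lower (-1.59, SE 0.46, adjusted p = 0.046), 4 of 7 against 2.09% of all genes. In male against female control ASC2, 2 were lower, against 6.49% of all genes. In ovariectomized against control female ASC1, 4 were lower, against 34.8% of all genes and with the 3 libraries that stood apart. In ASC2 against ASC1 of castrated males 2 were lower and 1 higher, against 9.07% of all genes. These keratins are shared with glandular epithelium, and basal keratin Krt14 reached 60 reads in library M of ovariectomized ASC2 and 79 in library E of control female ASC1, both without a read of Tcf21. Aldh1a2, the retinaldehyde dehydrogenase of mesothelium and splanchnic mesenchyme, was lower in ASC2 than ASC1 of control males (0.579 against 30.8 CPM, -5.28, SE 1.26, adjusted p = 0.0029). In libraries E and F of control female ASC1 it had 5 and 0 reads against 54 to 117 in B, C, D, G and H. Calb2, a calcium-binding protein of mesothelium, had reads in the 2 control male groups only.

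Of 10 further visceral and splanchnic genes 6 were tested. Wnt4, a signalling ligand of gonadal and mesothelial tissue, was lower in male than female control ASC1 (1.24 against 12.2 CPM, -3.26, SE 0.75, adjusted p = 0.026) and in ASC2 than ASC1 of control females (-3.84, SE 0.76, adjusted p = 3.7e-04), and in castrated against control males none of the 6 passed in either population. In ovariectomized against control female ASC1, 2 of the 6 were lower and 1 higher, against 34.8% of all genes. Of 10 subcutaneous depot genes 6 were tested and none passed in either castration comparison. In ovariectomized against control female ASC1, 2 of the 6 were higher, near the share of 34.8% of all genes. In ASC2 against ASC1 of control females 3 of the 6 were higher, against 6.11% of all genes, namely Tbx5 (3.40, SE 0.74, adjusted p = 0.0013), Prrx1 (0.80, SE 0.20, adjusted p = 0.0065) and Hoxc10 (1.39, SE 0.43, adjusted p = 0.041). Markers of other cells were also present. The 5 epithelial genes summed to 0 to 307 CPM over libraries and none had a read in ovariectomized ASC1, and the leukocyte genes summed to 24.6 to 746 CPM. In ovariectomized against control female ASC2, where Krt7, Krt8 and Krt18 were higher, all 3 epithelial genes tested were higher too. There 5 of 7 fibroblast genes were lower and none higher, against 2.09% of all genes. In castrated against control male ASC1, 3 of 4 leukocyte genes tested were lower (Ptprc, Cd68 and Adgre1) and 2 of 7 fibroblast genes were lower, Dcn (-0.79, adjusted p = 0.039) and Cd34 (-1.91, adjusted p = 2.5e-04), against 2.36% of all genes. Dpp4, whose protein is absent from ASC1 by the sort, was higher in the same comparison (26.1 against 6.76 CPM, 1.87, SE 0.48, adjusted p = 0.019). Within castrated male ASC1 it was at 15.9 to 47.1 CPM in the 6 libraries with the genes found together and at 7.14 and 1.27 CPM in the other 2, without overlap. In control male ASC1 the ranges were 7.61 to 14.0 CPM in 3 libraries and 0.868 to 8.84 CPM in 4, and in control female ASC1 16.8 to 41.9 CPM in 5 and 5.98 to 32.6 CPM in 3, both with overlap. In control females the overlap came from library A alone, at 32.6 CPM from 5 reads in 139822 counts. That library also held reads of Tcf21, Wt1 and Upk1b, while E and F were at 8.52 and 5.98 CPM. In ASC2 of castrated against control males 3 of 5 endothelial genes were higher (Pecam1, Cdh5 and Kdr), Cd68 was higher (adjusted p = 0.040), Dcn was lower (-1.36, adjusted p = 3.2e-05), and of 5 mural genes 1 was higher and 1 lower, against 6.95% of all genes. Their part in the levels of the members was not tested.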

How the data were processed

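The authors trimmed reads with NGmerge, used STAR 2.7.10a for quality control, quantified reads with and without UMI together by Salmon 1.9.0 on Gencode transcripts of GRCm39, and removed libraries under a set number of detected genes. The deposited values are estimated counts per gene, without normalization. Of those above 0, 15.0% were not whole, and all were rounded. The 56953 genes were read in R 4.3.3 and the 12464 that reached 5 reads in more than 3 libraries were tested with edgeR 4.0.16 (TMM, 1 coefficient for each of 8 groups, glmQLFit and glmQLFTest, Benjamini-Hochberg adjustment, tested on simulated data). Symbols were matched by Ensembl identifier for 12371 of the genes tested. CPM values use TMM-scaled sizes, with 1 CPM added on the log2 scale.

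The members and lists were chosen with earlier results of these data known. Named were the 10 members, up to 3 genes of the mesothelial, visceral and subcutaneous lists that passed with the lowest adjusted p, and for each tested member the genes with the highest Spearman correlation. Tbx15, Krt14, the reads of Aldh1a2 by library, Calb2, Dpp4, Sult1e1, C7 and the fibroblast, leukocyte, endothelial and other listed genes beyond the first 3 were named after their values were seen. Promoter windows were read from a RefSeq table on GRCm38.p6, and motifs were searched on both strands. Libraries of a group are separate samples by the labels, and pairs of them were checked for copies (lowest chi-square per gene 1.53). Total counts of 106562 to 1421518 set a floor that covers counting error only. Alternatives were no count filter, filterByExpr, library size only, RLE size factors, only the groups compared, a block by letter, DESeq2 1.42.0, each ovariectomized ASC1 library left out and, added after seeing the data, only libraries whose sex transcripts match the label.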

Additional observations from a re-analysis of the deposited data

Results flagged for a closer look

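Within groups of 7 or 8 libraries, the highest library passed Dixon's 95% limit in 7 of 53 combinations of a gene and a group. These were Tcf21 at 21.6 CPM and Msln at 6.34 CPM in library J of castrated male ASC2, Upk3b at 15.7 CPM and Msln at 6.86 CPM in library C of control female ASC2, and Gata6 at 59.6 CPM, from 15 reads, in library P of castrated male ASC1. The other 2, Upk3b at 1.57 CPM in library G and Lrrn4 at 1.29 CPM in library A of control male ASC2, rest on 1 read each. Dixon's limit assumes normally distributed values, whereas in many of these combinations most libraries had no read. Its nominal rate therefore does not apply, and no excess over chance can be read from 7 of 53.

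The ovariectomy effect differed between ASC2 and ASC1 for 7 members by the interaction term of edgeR. The fitted log2 difference, ASC2 minus ASC1, was 8.31 for Tcf21 (adjusted p = 0.033), 7.59 for Wt1 (adjusted p = 0.038), 5.43 for Upk3b (adjusted p = 0.039), 8.22 for Upk1b (adjusted p = 0.019), 6.91 for Msln (adjusted p = 0.014), 6.40 for Lrrn4 (adjusted p = 0.032) and 5.91 for Bnc1 (adjusted p = 0.031). For all but Upk3b the ovariectomized ASC1 group had no read, so the fitted size depends on the prior count. In those 3 libraries the other genes had moved too, with 34.8% of all genes past the threshold for the same difference.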

How the results depend on the processing

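The number of members called, in the order main then alternative, moved by more than 1.5 times in these settings. Without a count filter it went from 3 to 5 in castrated against control male ASC1, from 1 to 3 in male against female control ASC2 and from 0 to 4 in ovariectomized against control female ASC1. DESeq2 gave 1 and 0 in the first and second of these, 1 in the third, 1 for ASC2 against ASC1 of control males and 0 of control females. With only the 2 groups compared, where 1 to 7 members passed the filter, the counts were 0 in castrated against control male ASC2, male against female control ASC2 and ASC2 against ASC1 of control males, and 4 in ovariectomized ASC1. That last comparison also gave 1 with RLE size factors, 3 with library size only, 1 with filterByExpr and 1 with the libraries whose sex transcripts match the label. The matching libraries gave 0 in castrated against control male ASC2 and in ASC2 against ASC1 of control females. The count stayed at 0 without any 1 of the ovariectomized ASC1 libraries.

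With the matching libraries alone the log2 fold change turned in male against female control ASC1 for Tcf21 (6.48), Wt1 (6.07), Upk3b (5.79), Upk1b (6.05), Lrrn4 (4.53) and Gata6 (1.24), in ovariectomized ASC1 for Upk3b (2.42), in ovariectomized ASC2 for Tcf21 (-0.318), Wt1 (-0.379), Upk3b (-0.149) and Lrrn4 (-0.325), in ASC2 against ASC1 of control males for Msln (-2.30) and Bnc1 (0.569), and of control females for Tcf21 (7.40), Wt1 (6.28), Upk3b (6.01), Upk1b (5.08), Msln (1.26), Lrrn4 (4.74) and Gata6 (0.725). None of these passed, and for Tcf21, Wt1, Upk1b and Lrrn4 in ovariectomized ASC1 no read was left in either group. Those of Tcf21, Wt1, Upk3b, Upk1b and Lrrn4 set against control female ASC1, whose matching libraries E and F held no read of them, depend on the prior count and are no bound. The causes were not tested.

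The letters were not taken as pairs in the main fit. In no comparison were the deviations of same-letter libraries correlated above 0.1 in every pair (range of r -0.169 to 0.283). That rule cannot exclude a pairing, since 5 of 7 pairs exceeded 0.1 in male against female control ASC1 (median 0.155). In castrated males every same-letter pair of ASC1 and ASC2 libraries differed in its sex transcripts, and the cause was not tested. A replicate block by letter gave 2 members in place of 1 in male against female control ASC2, where Msln turned to 0.274, and the main count in the other 4 comparisons that share letters. No paired analysis was possible for castration and ovariectomy because their groups share no letter.

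At 3 reads as the minimum the number of libraries fell to 15 for Msln, 11 for Bnc1, 7 for Gata4 and 3 for Gpm6a, and the other 6 members kept within 1.5 times. Counts over all genes moved by more than 1.5 times from 294 to 580, 866 to 290 and 809 to 365 with only the groups compared, from 36 to 81 without a filter and 59 with the block, from 4336 to 2337 without ovariectomized ASC1 library L, and with the matching libraries from 36 to 140, 809 to 340, 261 to 4, 1522 to 1002 and 762 to 158. Depth limits Bnc1, Gata4 and Gpm6a, of which no library had more than 7 reads.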
